A study of Mus musculus with 6 samples.

Results

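The genes described here encode proteins that coat, build or enlarge lipid droplets: the perilipins Plin1 to Plin5, the CIDE proteins Cidea and Cidec, the endoplasmic reticulum proteins Fitm2 and Bscl2, and caveolin-1, Cav1. These 10 genes were chosen by symbol, and each gene was followed through its brightest probe set on average over the 6 arrays of the series, with any other probe set as a check. Of the 10 genes, 9 had at least 1 probe set annotated to that symbol alone, among 18194 genes named in this way, and Plin1 was not analysed here. A gene was called detected where its log2 value reached 6.55, the median of all values, on at least 1 array. This held for 8 of the 9 genes and for 12386 genes in all, while Cidea stayed under the level on every array.

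Expression was measured in 3T3-L1 cells, a mouse preadipocyte line, which had been induced to differentiate with insulin, 3-isobutyl-1-methylxanthine and dexamethasone and were then kept in medium with insulin for 5 days of treatment. A first experiment compared 20 µM ritonavir, which blocks the HIV protease, and 1 µM tenofovir, which blocks reverse transcription, with 0.1% ethanol, the vehicle. All cells of a second experiment were given 20 µM ritonavir, combined with 0.1% DMSO as fatty acid vehicle or with 100 µM of a conjugated linoleic acid (CLA) isomer, t10,c12-CLA or c9,t11-CLA. Every group, 6 in all, was 1 array of RNA pooled from 4 replicate experiments, so differences between groups have no replicate check and no test, and all comparisons are between single arrays of 1 cell line. The labels do not say whether ethanol was also present with ritonavir, or DMSO with the CLA isomers.

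A lipid droplet is a core of neutral lipid under a single layer of phospholipid, formed in the membrane of the endoplasmic reticulum. Perilipins sit on its surface and govern the access of lipases, CIDE proteins sit where droplets touch and pass lipid from the smaller to the larger droplet, and seipin, the product of Bscl2, and FIT2, the product of Fitm2, act in the reticulum when a droplet is formed. In white fat some of these genes are switched on during differentiation, and in humans loss of seipin or of caveolin-1 causes lipodystrophy, a lack of fat tissue.

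Promoter sequence is shown for 3 genes whose values the results below turn on: Cidec, which had the widest range of the members over the arrays, Plin2, which was highest with t10,c12-CLA, and Plin3, which was higher on all 4 arrays with ritonavir than on both without. Each window runs from 250 bases before to 50 bases after a transcription start of the RefSeq annotation of GRCm38.p6 and is written 5′ to 3′ on the strand of the gene, with matches to any of the motifs named after the sequences in capitals. The Cidec windows are chr6:113435711-113436010 and chr6:113434715-113435014, the Plin2 window is chr4:86670010-86670309 and the Plin3 window is chr17:56290462-56290761, all on the minus strand.
Cidec, window 1: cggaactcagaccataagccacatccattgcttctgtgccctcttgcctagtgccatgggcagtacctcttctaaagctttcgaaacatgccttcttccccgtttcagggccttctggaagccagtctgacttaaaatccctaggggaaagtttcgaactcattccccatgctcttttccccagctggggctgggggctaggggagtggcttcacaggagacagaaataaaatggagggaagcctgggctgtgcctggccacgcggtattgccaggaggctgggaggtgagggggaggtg
Cidec, window 2: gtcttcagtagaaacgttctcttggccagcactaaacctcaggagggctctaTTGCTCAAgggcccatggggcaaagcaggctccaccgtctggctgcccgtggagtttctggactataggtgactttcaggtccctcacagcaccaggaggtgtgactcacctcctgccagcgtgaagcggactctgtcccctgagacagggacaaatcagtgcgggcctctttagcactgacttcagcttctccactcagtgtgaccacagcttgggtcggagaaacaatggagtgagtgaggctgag
Plin2: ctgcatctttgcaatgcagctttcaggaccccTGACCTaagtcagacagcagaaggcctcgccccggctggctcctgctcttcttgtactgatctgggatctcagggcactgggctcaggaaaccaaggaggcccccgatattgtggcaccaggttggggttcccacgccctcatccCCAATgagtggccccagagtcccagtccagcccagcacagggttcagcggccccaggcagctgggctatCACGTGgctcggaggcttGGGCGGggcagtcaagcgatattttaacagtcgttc
Plin3: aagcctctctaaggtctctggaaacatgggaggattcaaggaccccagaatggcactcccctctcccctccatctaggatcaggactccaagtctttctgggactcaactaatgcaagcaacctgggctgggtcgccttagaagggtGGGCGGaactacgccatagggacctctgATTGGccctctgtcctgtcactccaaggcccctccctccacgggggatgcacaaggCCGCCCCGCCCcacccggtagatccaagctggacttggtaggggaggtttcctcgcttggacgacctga

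The letters searched on both strands were AGGTCA, the core bound by nuclear receptors such as PPARγ, its direct repeat AGGTCANAGGTCA, TTGCNNAA for C/EBP factors, CACGTG for E-box factors, TATAAA, the GC box CCGCCC and CCAAT. The shares of all 32851 RefSeq windows of the same length that hold them were 16.3%, 0.0396%, 10.8%, 7.15%, 13.6%, 35.7% and 37.4%, in that order. The first Cidec window held none of these letters, and the other held 1 match to TTGCNNAA, from 198 to 191 bases before the start. The Plin2 window held AGGTCA on the opposite strand from 218 to 213 bases before the start, CACGTG across the start itself, 1 CCAAT and 1 CCGCCC. The Plin3 window held 3 matches to CCGCCC, 2 of which share a base, and 1 to CCAAT. These matches describe letters in a short window and say nothing about binding. Windows were given for 9 of the 10 genes. Plin3, Plin4 and Plin5 lie on chromosome 17, where Plin4 and Plin5 are neighbours with 0 protein-coding genes between them and Plin5 and Plin3 have 7 between them.

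Before the members are described, the state of the arrays matters. The tenofovir and ethanol arrays were close: the absolute log2 difference stayed under 0.26 for 95% of detected genes, and this value serves below as a yardstick for neighbouring levels, not as a replicate error. Because this pair set the yardstick, 95% of detected genes lie within it for ethanol and tenofovir by construction. The 2 arrays with ritonavir and no fatty acid stood apart from each other, with 4.91% of detected genes at least 2-fold apart. They differ in vehicle and experiment, which cannot be told apart. Of 12 adipocyte markers 11 were detected. Their summed linear signal was 154193 on the ethanol, 155578 on the tenofovir and 46959 on the ritonavir array. In the second experiment it was 117146 with DMSO, 120743 with c9,t11-CLA and 75464 with t10,c12-CLA. For preadipocyte and fibroblast markers, 9 of 12 detected, the sums were 62251 on the ethanol, 59939 on the tenofovir and 95047 on the ritonavir array, and 43361, 46804 and 60892 with DMSO, c9,t11-CLA and t10,c12-CLA. Such sums are carried by the brightest genes. Between ritonavir and ethanol 7 of these 9 were higher, Tagln by 3.77 and Acta2 by 2.54, but Col3a1 by only 0.02. The other 2, Dlk1 and Pdgfra, differed by -0.11 and -0.07. The part of either set of markers in the results below was not tested. In such pooled cultures fewer mature fat cells and less RNA of a gene per cell cannot be told apart. Of 8 macrophage markers, 4 stayed under the detection level on every array (Adgre1, Itgam, Ptprc and Mrc1) and 4 were detected. Cd68 measured 6.87 with ethanol, 8.71 with ritonavir, 8.43 with DMSO and 10.10 with t10,c12-CLA, so it was 1.83 higher with ritonavir than with ethanol and 1.67 higher with t10,c12-CLA than with DMSO. Cd14 differed by 0.31 and 0.43, Csf1r by -0.19 and 0.15, and Lyz2 by -0.26 and -0.22 in the same comparisons.

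Plin2 encodes perilipin 2, or ADRP, the coat protein that most cell types place on their droplets. Its log2 values were 13.81 with ethanol, 13.82 with tenofovir, 13.05 with ritonavir, 13.44 with ritonavir and DMSO, 13.45 with c9,t11-CLA and 14.18 with t10,c12-CLA. The t10,c12-CLA array was thus the highest, by 0.36 over the next, and the ritonavir array the lowest. The arrays with and without ritonavir overlapped, since t10,c12-CLA lay above and the other 3 below the pair without the drug. DMSO and c9,t11-CLA were closer than the yardstick, as were ethanol and tenofovir, the pair that set it.

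Plin3 encodes perilipin 3, or TIP47, which moves from the cytosol onto small new droplets. Its values were 10.14 with ethanol, 10.17 with tenofovir, 10.95 with ritonavir, 10.34 with ritonavir and DMSO, 10.24 with c9,t11-CLA and 10.65 with t10,c12-CLA. Every array with ritonavir lay above both without it, but the nearest pair, c9,t11-CLA and tenofovir, was only 0.07 apart, and ethanol, tenofovir, c9,t11-CLA and DMSO followed each other in steps smaller than the yardstick. Plin3 was the only detected member with its highest value on the ritonavir array.

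Plin4 encodes perilipin 4, or S3-12, which is abundant in white fat. It varied little, with 13.08 on the ethanol, 13.07 on the tenofovir, 12.64 on the ritonavir, 12.81 on the DMSO, 12.95 on the c9,t11-CLA and 12.996 on the t10,c12-CLA array. All 4 arrays with ritonavir lay below both without, by 0.08 for the nearest pair, and each step in the order was smaller than the yardstick. Plin5, the perilipin of oxidative tissues such as heart and brown fat, lay between 7.39 and 7.62 on all 6 arrays, not far above the detection level. Its other probe set stayed between 5.09 and 5.64, under that level, so the level of Plin5 is uncertain.

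Cidec, also called Fsp27, encodes the CIDE protein that lets white fat cells form large droplets. Its values were 13.54 with ethanol, 13.52 with tenofovir, 7.34 with ritonavir, 12.50 with ritonavir and DMSO, 12.63 with c9,t11-CLA and 10.29 with t10,c12-CLA. The ritonavir array thus stood far below every other array and t10,c12-CLA stood between it and the rest, while the drug-free pair lay 0.89 above the nearest array with ritonavir. Ethanol and tenofovir, the pair that set the yardstick, did not differ beyond it, nor did DMSO and c9,t11-CLA. Cidea, the CIDE gene known from brown fat, ranged from 5.81 on the ritonavir to 6.31 on the tenofovir array and was not detected, so its order is not read. Of 8 brown adipocyte markers listed, Ucp1, Dio2 and Elovl3 also stayed under the level on all arrays, and 4 were detected. Of these, Cox7a1 differed by -4.40 and Cox8b by -2.18 between ritonavir and ethanol, and by -2.11 and -2.16 between t10,c12-CLA and DMSO, with both ending near or under the level. Ppargc1a was 2.04 higher with ritonavir than with ethanol and Prdm16 stayed between 6.63 and 6.89.

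**Figure D1:**
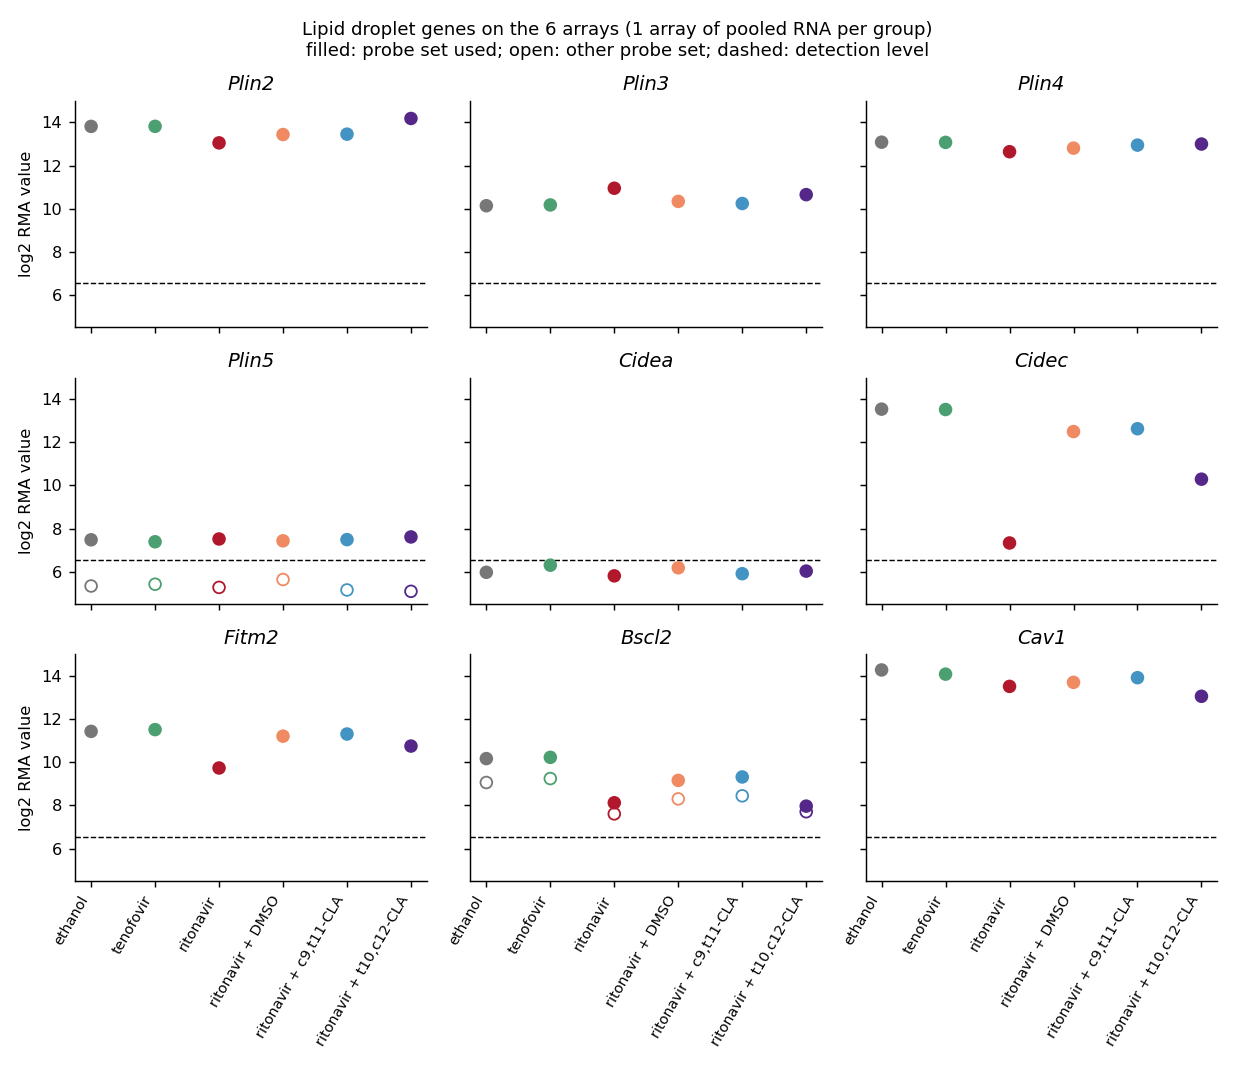
Log2 RMA values (vertical axis) of the 9 genes with a named probe set on the 6 arrays (horizontal axis, 1 array of pooled RNA per group, no error bars). Filled points are the probe set used, open points the other probe set of Plin5 and Bscl2, and the dashed line is the detection level of 6.55. Cidec drops to 7.34 on the ritonavir array, and Plin2 is highest, at 14.18, with t10,c12-CLA.

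Fitm2 encodes FIT2, an enzyme of the endoplasmic reticulum membrane that is needed for droplets to bud into the cytosol. It measured 11.44 with ethanol, 11.52 with tenofovir, 9.74 with ritonavir, 11.21 with ritonavir and DMSO, 11.31 with c9,t11-CLA and 10.75 with t10,c12-CLA. The ritonavir array was the lowest by 1.02 and t10,c12-CLA the next, while the other 4 arrays followed each other in steps under the yardstick. The arrays with and without ritonavir did not overlap, though the nearest pair lay just 0.12 apart.

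Bscl2 encodes seipin, which sits where the reticulum meets a growing droplet. Its values were 10.17 with ethanol, 10.23 with tenofovir, 8.13 with ritonavir, 9.16 with ritonavir and DMSO, 9.32 with c9,t11-CLA and 7.97 with t10,c12-CLA. All arrays with ritonavir lay below both without, by 0.85 for the nearest pair. The t10,c12-CLA and ritonavir arrays were the lowest and differed by 0.16, less than the yardstick. The other probe set of Bscl2 gave 9.06, 9.25, 7.61, 8.31, 8.45 and 7.71 on the same arrays, with the same split between arrays with and without the drug and smaller differences. There ritonavir was the lowest array and t10,c12-CLA the next.

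Cav1 encodes caveolin-1, the coat protein of the plasma membrane pits called caveolae, which also reaches droplets in fat cells. It measured 14.28 with ethanol, 14.09 with tenofovir, 13.52 with ritonavir, 13.71 with ritonavir and DMSO, 13.92 with c9,t11-CLA and 13.06 with t10,c12-CLA. The t10,c12-CLA array was the lowest, 0.46 below ritonavir, and the other 5 followed each other in steps under the yardstick. All 4 arrays with ritonavir lay below both without, by 0.16 for the nearest pair.

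Over the 8 detected members, 5 (Plin4, Cidec, Fitm2, Bscl2 and Cav1) were lower on all 4 arrays with ritonavir than on both without, an order that 22.6% of detected genes share. Plin3 alone had the opposite order, which 28.6% of genes share. Together 6 of 8 members did not overlap, beside 51.2% of all detected genes. The nearest pair lay 0.89 apart for Cidec and 0.85 for Bscl2. For Plin3, Plin4, Fitm2 and Cav1 it lay 0.07, 0.08, 0.12 and 0.16 apart, less than the yardstick. The 4 arrays with the drug also differ in fatty acid, vehicle and experiment and are not replicates. The lowest of the 6 values fell on the ritonavir array for Plin2, Plin4, Cidec and Fitm2 and on the t10,c12-CLA array for Bscl2 and Cav1.

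Ritonavir was compared with its vehicle to ask what the drug does to maturing fat cells. Cidec, Bscl2 and Fitm2 were at least 2-fold lower on the ritonavir array, and no detected member was 2-fold higher. The difference of Cidec was -6.20 on the log2 scale, which is 73.7-fold and the 4th lowest of 12386 genes. Its size is uncertain, because Cidec measured 7.34 on the ritonavir array, not far above the detection level of 6.55. The differences of Bscl2 and Fitm2 were -2.05 and -1.70, or 4.13-fold and 3.24-fold, with ranks of 264 and 361 from the lowest. Plin2 and Cav1 both differed by -0.76 and Plin4 by -0.44, whereas Plin3 was higher by 0.81 and Plin5 differed by 0.04.

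Thus 3 of 8 members were at least 2-fold lower, beside 6.39% of all detected genes, and 0 of 8 were 2-fold higher, beside 4.56% (10.9% in either direction). The median of the members was -0.76 and that of all detected genes 0.0018. The perilipins lay within the range of ordinary genes: 17.1% of detected genes were at least as far apart as Plin2, 15.6% as Plin3 and 34.8% as Plin4. For Bscl2 the other probe set gave -1.45.

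With the second experiment's array of ritonavir and DMSO in place of the ritonavir array, which shares the ethanol array with the comparison above, Cidec and Bscl2 were still 2-fold lower than ethanol and Fitm2 was not. Cidec differed by -1.04 in place of -6.20, Bscl2 by -1.01 in place of -2.05 and Fitm2 by -0.22 in place of -1.70. Plin2 (-0.38), Plin4 (-0.28) and Cav1 (-0.58) kept their sign with smaller values. Plin3 differed by 0.20 and Plin5 by -0.05 in place of 0.04. Both genes lay under the yardstick of 0.26 here, so their direction is not read. The count was 2 of 8 members at least 2-fold lower, beside 2.99% of detected genes, and 0 higher, beside 1.52% (4.51% in either direction). The call of Bscl2 rests on its probe set, since the other gave -0.76. Medians were -0.33 for the members and 0.016 for all detected genes.

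**Figure D2:**
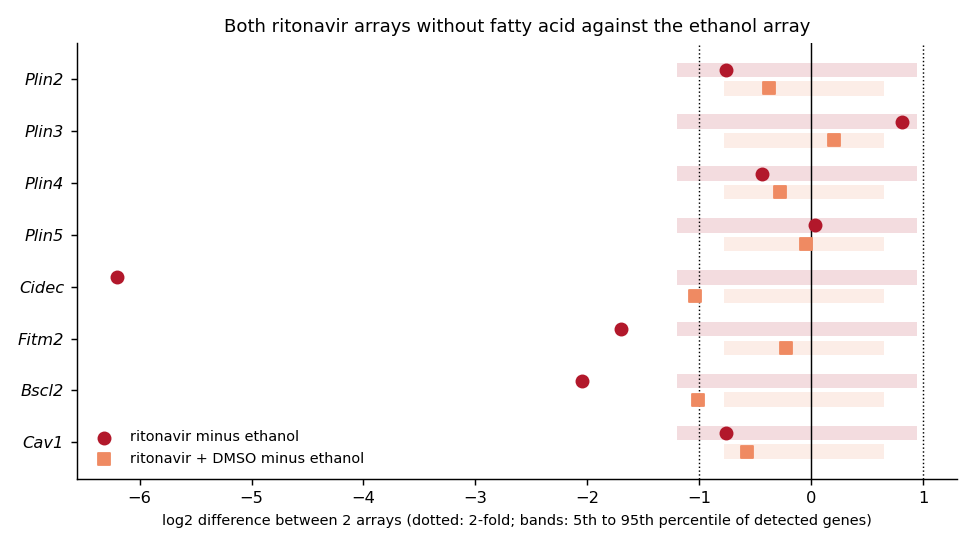
Log2 differences from the ethanol array (horizontal axis) of the 8 detected members, for the ritonavir array (circles) and the array of ritonavir with DMSO (squares). Bands span the 5th to 95th percentile of all detected genes in each comparison and dotted lines mark 2-fold. Cidec lies at -6.20 in the first experiment and at -1.04 in the second, and Bscl2 at -2.05 and -1.01, all outside their bands. Fitm2 is outside only for the ritonavir array (-1.70), and the perilipins and Cav1 lie inside both bands.

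Set directly against each other, the ritonavir arrays of both experiments differed most in the same 3 genes. With DMSO Cidec was 5.16 higher, or 35.9-fold and the 2nd highest of all detected genes, Fitm2 1.47 higher and Bscl2 1.04 higher. The size of the Cidec difference is again uncertain, because its value on the ritonavir array was not far above the detection level. Plin2 was 0.39, Cav1 0.19 and Plin4 0.17 higher, Plin5 differed by -0.08 and Plin3 by -0.61. Hence 3 of 8 members were at least 2-fold higher, beside 2.83% of all detected genes, and 0 lower, beside 2.07% (4.91% in either direction). The other probe set of Bscl2 gave 0.69 and is not 2-fold apart. Of the 9 preadipocyte and fibroblast markers detected, all were lower on the array with DMSO, 5 of them at least 2-fold, and all 11 adipocyte markers were higher, 8 of them at least 2-fold.

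Tenofovir was set against the same vehicle as a drug of another class. No member was 2-fold apart, and neither was any detected gene (0% in both directions). The differences of the 8 members ran from -0.19 for Cav1 to 0.08 for Fitm2, and those of Cidec and Plin2 were -0.02 and 0.0029. Cav1 was the member farthest from 0, and 12.1% of detected genes were at least as far.

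The CLA isomers were compared with DMSO to see what each does in cells under ritonavir. With c9,t11-CLA the members stayed close to the DMSO array. Differences ran from -0.10 for Plin3 to 0.22 for Cav1, with 0.13 for Cidec, 0.16 for Bscl2, 0.10 for Fitm2, 0.14 for Plin4 and 0.02 for Plin2. No member was 2-fold apart, beside 0.00807% of detected genes lower and 0% higher. Of the 8 members 7 lay above 0, with a median of 0.12, beside a median of 0.0071 over all detected genes. Of all detected genes 47.6% lay under 0. The differences of all 8 members were smaller than the yardstick, so their direction is not read.

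With t10,c12-CLA members lay on both sides of 0. Cidec was 4.62-fold lower than with DMSO, a difference of -2.21 and the 10th lowest of 12386 genes, and Bscl2 was 2.29-fold lower, a difference of -1.19 with rank 87. Cav1 differed by -0.65 and Fitm2 by -0.46. Plin2 was higher by 0.74, or 1.68-fold, and Plin3 by 0.31. Plin4 and Plin5 differed by 0.19 and 0.18, less than the yardstick of 0.26, and the other probe set of Plin5, under the detection level, gave -0.55. So 2 of 8 members were at least 2-fold lower, beside 1.05% of all detected genes, and 0 higher, beside 0.783% (1.83% in either direction). The other probe set of Bscl2 gave -0.59 and is not 2-fold apart. For Plin2, 4.198% of detected genes were at least as far from 0, and 23.4% for Plin3, 43.2% for Plin4 and 45.6% for Plin5.

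The isomers share their chain length and differ in the position and geometry of their conjugated bonds. They were given at the same dose for the same time, and 1 pair of arrays could be compared. On the t10,c12-CLA array Cidec was 5.06-fold lower than on the c9,t11-CLA array (-2.34), Bscl2 2.55-fold lower (-1.35), and Cav1 and Fitm2 differed by -0.86 and -0.56 on the log2 scale. Plin2 was 1.65-fold higher (0.73), Plin3 differed by 0.41, Plin5 by 0.12 and Plin4 by 0.05. The count was 2 of 8 members at least 2-fold lower, beside 1.53% of detected genes, and 0 higher, beside 0.953% (2.48% in either direction). With 1 array each, no interval can be given for these differences. They share the t10,c12-CLA array with the comparison against DMSO.

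**Figure D3:**
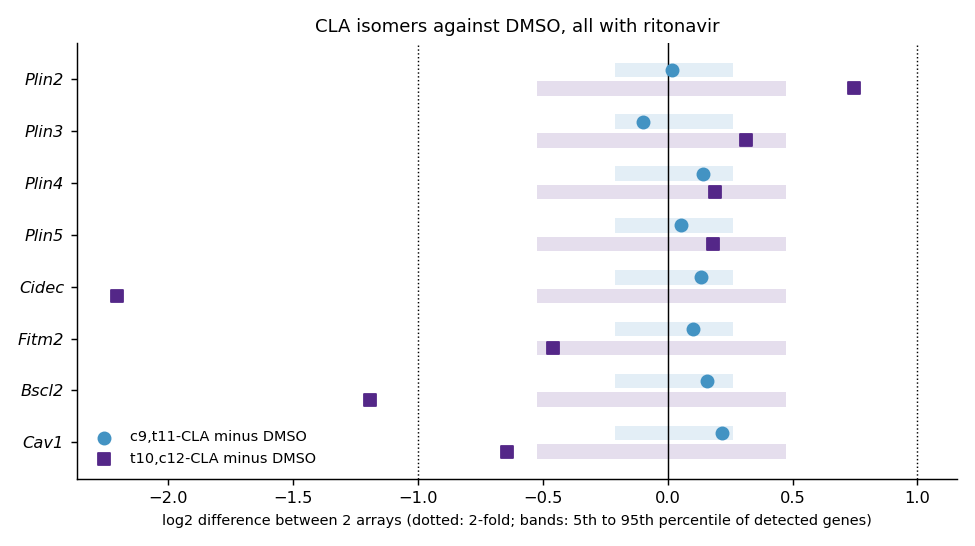
Log2 differences from the array of ritonavir with DMSO (horizontal axis) of the 8 detected members, for c9,t11-CLA (circles) and t10,c12-CLA (squares), all with ritonavir. Bands span the 5th to 95th percentile of all detected genes and dotted lines mark 2-fold. With t10,c12-CLA Cidec (-2.21), Bscl2 (-1.19) and Cav1 (-0.65) lie to the left and Plin2 (0.74) to the right of the band, while c9,t11-CLA leaves every member between -0.10 and 0.22.

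Other genes of the droplet surface were examined as a list of 29, of which 26 were detected. Beside the counts of this and the lists below, 6.39% of all detected genes were at least 2-fold lower and 4.56% higher for ritonavir against ethanol. These shares were 2.99% and 1.52% for ritonavir with DMSO against ethanol, and 1.05% and 0.783% for t10,c12-CLA against DMSO. On the ritonavir array 11 of the 26 were at least 2-fold lower than with ethanol and 0 higher, with a median of -0.51. Hormone-sensitive lipase, Lipe, differed by -4.32, the lipase-like Pnpla3 by -3.64 and G0s2, the inhibitor of adipose triglyceride lipase, by -3.46. The small GTPases Rab18 and Rab7, found on droplets in many cell types, differed by 0.13 and 0.32. With DMSO 5 of 26 were at least 2-fold lower than ethanol and 0 higher, with a median of -0.10, led by the monoglyceride lipase Mgll (-2.62) and Pnpla3 (-2.56).

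With t10,c12-CLA, 6 of the 26 surface genes were at least 2-fold lower than with DMSO and 0 higher, with a median of -0.12. The carboxylesterase Ces1d differed by -1.68, G0s2 by -1.40 and the lanosterol synthase Lss by -1.23. The adipose triglyceride lipase Pnpla2 and its activator Abhd5, a partner of perilipin 1, differed by -0.96 and -0.71 and stayed short of 2-fold. Mgll and Pnpla3 each lay under the detection level on 1 array, ritonavir and t10,c12-CLA in turn, and Pnpla3 on the ritonavir array, at 6.56, was barely above that level. The size of the differences that use those arrays, -3.64 for Pnpla3 among them, is therefore uncertain.

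Enzymes and membrane proteins of droplet assembly in the endoplasmic reticulum, a list of 24 with 21 detected, divided in a similar way. On the ritonavir array 8 of 21 were at least 2-fold lower than ethanol and 0 higher, with a median of -0.29. The phosphatidate phosphatase Lpin1 differed by -2.81, Tmem120a by -2.32 and Tmem120b by -2.05. Fitm1, the relative of Fitm2 that prevails in muscle, differed by only -0.15, and the acyltransferase Gpat4 by -0.29. With DMSO 0 of 21 were 2-fold apart from ethanol, and the acyltransferases Gpat3 and Agpat2 were 2.40 and 2.32 higher there than on the ritonavir array. With t10,c12-CLA 4 of 21 were at least 2-fold lower than DMSO and 0 higher, with a median of -0.15, led by Tmem120b (-1.45), Lpin1 (-1.33) and Gpat3 (-1.26).

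Genes of caveolae, where Cav1 acts, numbered 12 in the list and 9 were detected. On the ritonavir array 5 of 9 were at least 2-fold lower than ethanol and 0 higher, with a median of -1.07. The cavins, which shape caveolae together with caveolin-1, gave -2.62 for Cavin2, -1.67 for Cavin1 and -1.40 for Cavin3, and caveolin-2, Cav2, gave -1.07. With DMSO 3 of 9 were at least 2-fold lower than ethanol, Cavin1 at -1.50, Cavin2 at -1.37 and the caveolar ATPase Ehd2 at -1.12. Cavin1 and Ehd2 therefore had nearly the same value on both ritonavir arrays, 0.17 and 0.09 apart, unlike Cidec. This did not hold for the whole list: with DMSO 6 of the 9 were higher than on the ritonavir array, Cavin2 by 1.24 and Cav2 by 0.90, and 3 were lower. With t10,c12-CLA 1 of 9, Cavin2 at -1.02, was 2-fold lower than DMSO and 0 were higher, while Cav2 differed by -0.67.

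Transcription factors that control droplet genes formed a list of 15, of which 14 were detected. On the ritonavir array 6 of 14 were at least 2-fold lower than ethanol and 1 higher, with a median of -0.93. Klf15 differed by -4.16, Cebpa by -3.50 and the oxysterol receptor gene Nr1h3 by -2.82. Klf15 and Nr1h3 measured 6.73 and 7.02 on the ritonavir array, not far above the detection level of 6.55. The size of their differences is therefore uncertain. Pparg, a main regulator of Cidec and some perilipins in fat cells, differed by -2.49, while the coactivator Ppargc1a was 2.04 higher. With DMSO 3 of 14 were at least 2-fold lower than ethanol and 1 higher. Pparg differed there by -1.08 and Klf15 by -1.75. With t10,c12-CLA 1 of 14, Klf15 at -1.40, was 2-fold lower than DMSO and 0 higher, and Pparg differed by -0.63 and Cebpa by -0.85.

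**Figure D4:**
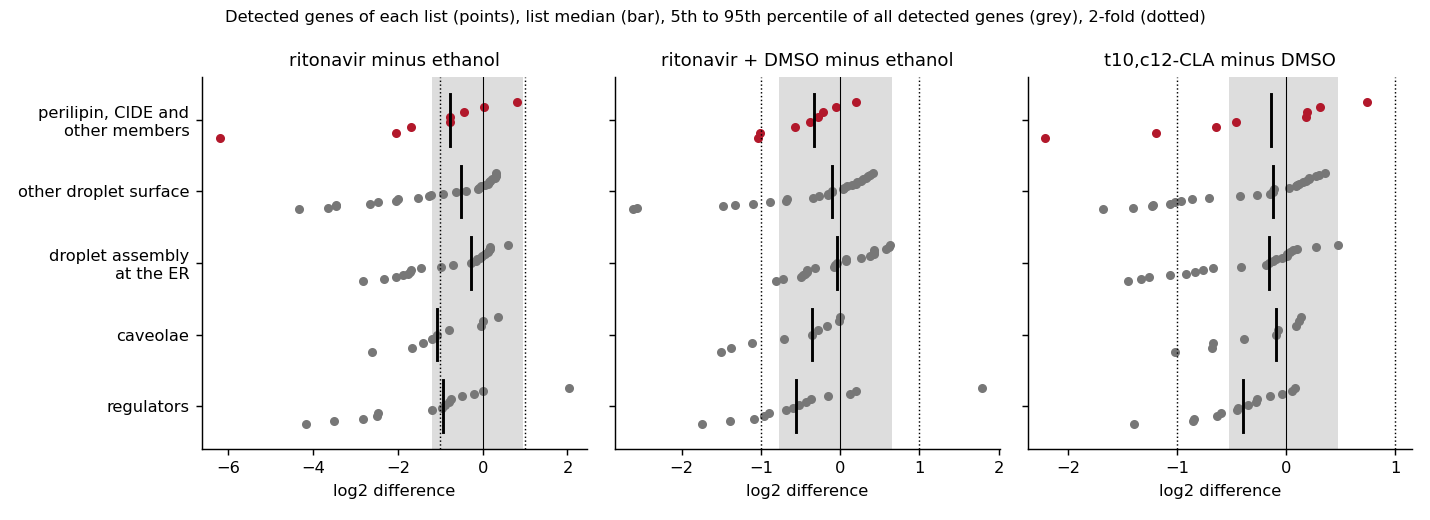
Log2 differences (horizontal axes) of the detected genes in the list of members (red) and in 4 further lists (grey points), for ritonavir minus ethanol, ritonavir with DMSO minus ethanol, and t10,c12-CLA minus DMSO. Bars are list medians, the grey area spans the 5th to 95th percentile of all detected genes and dotted lines mark 2-fold. Cidec is the gene farthest to the left in the first panel, at -6.20, and in the last, at -2.21, while Mgll, at -2.62, is so in the middle panel, and Plin2 is the member farthest to the right in the last panel, at 0.74.

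Profiles over the 6 arrays were compared by the root mean square difference of log2 values after centring each gene on its own mean, for the 5 members that ranged over at least 1 log2 unit. The genes nearest to Cidec were Gpd1, the glycerol phosphate dehydrogenase that supplies triglyceride synthesis, at 0.55, Mrap, the melanocortin receptor accessory gene, at 0.60, and Tmem182 at 0.62. Mrap lay under the detection level on 1 array and Tmem182 on 2. No detected gene lay within 0.2 of Cidec, whereas 217 did for Cav1, 52 for Fitm2, 32 for Plin2 and 22 for Bscl2. A wider range makes such closeness harder to reach, because the distance is not scaled. Cidec ranged over 6.20 log2 units and the others over 1.13 to 2.26, so these counts do not set Cidec apart.

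The genes nearest to Bscl2 were Npr3, the clearance receptor of natriuretic peptides, at 0.08, the peptide hormone gene Apln at 0.10 and the smooth muscle myosin gene Myh11 at 0.12. Those nearest to Fitm2 were Mgst3, a microsomal glutathione transferase, at 0.05, Parm1 at 0.07 and Lrr1 at 0.08. The nearest to Plin2 were the taurine transporter gene Slc6a6 at 0.10, Celsr3 at 0.14 and Adgrg2 at 0.15. Myh11 lay under the detection level on 2 arrays, Celsr3 on 1 and Adgrg2 on 3. For Cav1 they were Scn7a at 0.07, Nlrx1 at 0.09 and Pcyt2, an enzyme of phosphatidylethanolamine synthesis, at 0.09. Among the members themselves the distance was 0.25 for Plin2 and Plin4, 0.35 for Plin2 and Plin5 and 0.36 for Cav1 and Plin4. Bscl2, Fitm2 and Cav1 lay farther apart, between 0.48 and 0.53 from each other. From Cav1 most detected genes were nearer than Fitm2 and Bscl2, which ranked 7696 and 9010 of 12385. From Bscl2, however, Fitm2 and Cav1 ranked 564 and 572, and from Fitm2, Cav1 and Bscl2 ranked 1670 and 2441. The distance is not scaled for a gene's range, which was only 0.44 for Plin4 and 0.22 for Plin5. Each of the other members lay farther from Cidec than Gpd1 did, Bscl2 being the nearest. The 6 arrays are few, and many unrelated genes can share such a profile.

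**Figure D5:**
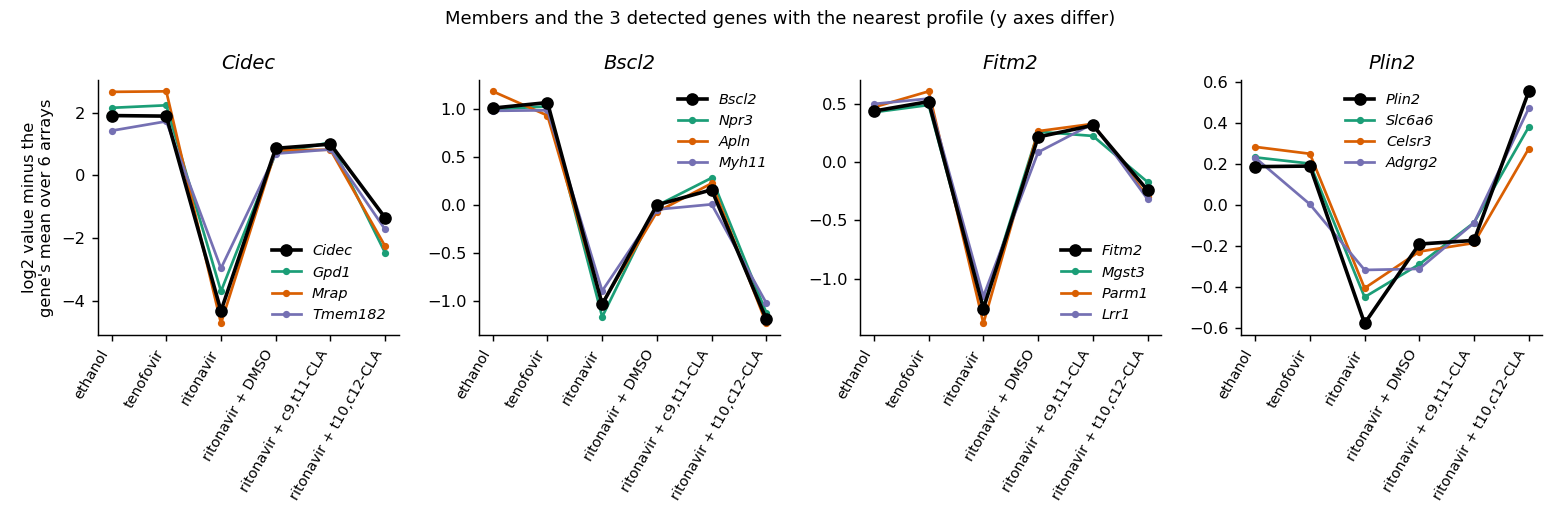
Log2 values on the 6 arrays, each gene centred on its own mean (vertical axes, which differ in range), for Cidec, Bscl2, Fitm2 and Plin2 (black) and the 3 detected genes nearest to each (coloured). Lines join the arrays of 1 gene for legibility and do not stand for an order in time. Cidec spans 6.20 log2 units and Plin2 1.13.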

How the data were processed

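RNA of each group was pooled from 4 replicate experiments, labelled with biotin and hybridised to 1 array, per the labels' protocols. The authors deposited log2 values for 45101 probe sets on 6 arrays. Per the submitters' processing notes they used RMA and Affymetrix Expression Console, for which no version is stated there. RMA equalises the arrays' distributions, so a shift shared by most genes would be removed.

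Probe sets were named through the platform annotation, with symbols updated by gene identifier in the RefSeq table of GRCm38.p6. There were 34958 with 1 symbol, 932 with several, which were not used, and 9211 not listed. The log2 difference of 2 arrays was taken for each of 7 comparisons over all 12386 detected genes, and members at least 2-fold apart were counted beside all genes. The members and lists were chosen with earlier results of these data known, by a rule that names all members, up to 3 list genes per direction and list at least 2-fold apart, and 3 nearest genes per member ranging over at least 1 log2 unit. A few other list genes (Rab18, Rab7, Pnpla2, Abhd5, Fitm1, Gpat4, Cav2, Pdgfra, Col3a1) are named as examples chosen after their values were seen. The same holds for Pparg and Cebpa where they lie outside the rule. The alternatives were other choices of probe set, no or a stricter detection level (8.77), values raised to the level, quantile normalization again, a lowess trend with a span of 0.3 removed, and thresholds of 1.5-fold and 3-fold. The counting was tested on simulated data. Depth does not apply to arrays, and their number limits the precision. Tables were handled in pandas 2.3.3 and numpy 2.4.6 under Python 3.11.15, the trend came from statsmodels 0.14.6, and matplotlib 3.10.9 drew the figures.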

Additional observations from a re-analysis of the deposited data

How the results depend on the processing

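All 12 member differences of at least 2-fold kept their sign in each of the 91 values that the alternatives gave, and 84 of these stayed at least 2-fold. Of the 406 alternative values of single members, 11 moved by more than the robust SD of tenofovir against ethanol (0.113), all of them of Bscl2 with its other probe set or the mean of both. The settings with no or a stricter detection level, with values raised to the level and without suffixes altered no kept member value (largest shift 0). The choice of probe set could change only Bscl2, since Plin5 then fell under the detection level and the other members have 1 probe set. Much of this stability was therefore fixed in advance. With the other probe set the members at least 2-fold apart were 1 in place of 2 for ritonavir with DMSO against ethanol, for t10,c12-CLA against DMSO and for t10,c12-CLA against c9,t11-CLA. The mean of all probe sets gave 1 in place of 2 in the first 2 of these. For ritonavir with DMSO against ritonavir these settings, and that without suffixes, gave 2 in place of 3. Keeping only probe sets without a suffix for shared transcripts leaves 5 members, without Bscl2, Cav1 and Plin5, and gave 1 in place of 2 in all 3. At 1.5-fold the counts were 6 in place of 3 for ritonavir against ethanol (beside 24.8% of genes) and 4 in place of 2, 3 lower and 1 higher, for t10,c12-CLA against DMSO (7.07%) and against c9,t11-CLA (8.09%). At 3-fold they were 0 for ritonavir with DMSO against ethanol (1.38%), and 1 each for ritonavir with DMSO against ritonavir (1.52%) and for t10,c12-CLA against DMSO (0.492%) and c9,t11-CLA (0.614%). The count of members that do not overlap between arrays with and without ritonavir was 6. It lay between 6 and 7 with each array left out in turn, an alternative chosen after seeing the data, with a share of all genes between 55.2% and 62% in place of 51.2%. Leaving out an array can only keep or raise such counts, for members and all genes alike. That the count did not fall was therefore fixed in advance and says nothing about stability. No paired analysis was possible because each group is 1 array. With 1 array per group no spread between cultures can be given.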
